A study of Arabidopsis thaliana with 12 samples.

Results

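The transcripts described here are read by 3 Affymetrix probe sets, out of 22746 probe sets tested on the array. The first (ID.245928_s_at) reads VSP1 (AT5G24780) and VSP2 (AT5G24770) together and cannot separate them, the second (ID.266142_at) reads NATA1 (AT2G39030) and the third reads AT4G17470. They were chosen by their log2 values in the 4 conditions of these same arrays, as jasmonate-inducible transcripts with a large spread between replicates. Their levels and differences are therefore given as a description, without tests. The genes of the first and second probe set come from the definition of the set, since the platform annotation used here leaves both unnamed, and the gene of the third comes from that annotation.

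The 12 arrays carried RNA of shoots, the aerial part, of Arabidopsis thaliana plants of the wild type Columbia. All plants grew for 9 days at 22 °C in continuous white light and then spent 24 h in 1 of 4 conditions, which left them 10 days old. The conditions were white light (WL) at 22 °C, the same light enriched with far-red (WFR) at 22 °C, WL at 26 °C and WFR at 26 °C, with 3 arrays each. The series asked how a shade signal and warmth act when each is varied on its own. Supplemental far-red light imitates the light reflected by neighbouring leaves. The labels call the arrays of a condition biological replicates, and nothing says how the plants were grown apart, so all errors below measure the spread between these arrays.

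Jasmonates are fatty-acid-derived hormones that plants make after wounding and insect attack. The amino acid conjugate jasmonoyl-isoleucine lets the receptor COI1 bind JAZ repressors, whose breakdown frees MYC2, MYC3 and MYC4, the basic helix-loop-helix factors that switch on response genes. VSP1 and VSP2, vegetative storage proteins with acid phosphatase activity, are classical targets of this branch in leaves and seedlings, and VSP2 slows the growth of insects that eat it. NATA1 is an acetyltransferase that makes N-delta-acetylornithine, a jasmonate-inducible defence compound, and also acetylates putrescine. AT4G17470 encodes an alpha/beta-hydrolase of the palmitoyl-protein thioesterase family. In Arabidopsis, a low ratio of red to far-red light is known to dampen jasmonate responses.

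Aerial tissue was the labelled source. RCA, which encodes Rubisco activase of green tissue, had log2 values of 14.39 to 14.51 over the 12 arrays, and EXPA7, an expansin of root hair cells, 4.80 to 5.37, with a mean above that of 28.4% of probe sets. These are the 2 of 21 tissue markers with a named probe set, and the flower markers had none. As in any whole-tissue sample, fewer expressing cells and less RNA per cell cannot be told apart. Array medians lay between 6.91 and 7.01.

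All 3 probe sets had higher means at 26 °C than at 22 °C in each light. In white light the mean of NATA1 was 8.05-fold higher, that of AT4G17470 2.84-fold higher and that of VSP1/VSP2 2.81-fold higher. With far-red light the same folds were 4.13, 1.74 and 2.64. The groups did not overlap in these 6 comparisons, whereas all far-red comparisons overlapped. Among all probe sets, 8.31% were higher without overlap at 26 °C in white light and 9.75% with far-red light. Between lights, 9.16% of all probe sets were higher and 7.52% lower without overlap at 22 °C, and 9.17% higher and 5.17% lower at 26 °C. The members were chosen with these contrasts known, so nothing is read from their count.

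VSP1/VSP2 was the brightest of the 3 relative to the array as a whole, with a mean above that of 96.6% of probe sets. In white light at 22 °C its log2 values were 11.65, 10.45 and 10.52 in replicates 1 to 3 (mean 10.87 ± 0.671, SD, n = 3). With far-red light at 22 °C they were 10.48, 10.79 and 10.47 (mean 10.58 ± 0.183). At 26 °C they were 12.20, 12.05 and 12.85 in white light (mean 12.36 ± 0.425) and 11.60, 12.40 and 11.93 with far-red light (mean 11.98 ± 0.402). Replicate 1 of white light at 22 °C stood 1.13 above the next array of its condition and reached the level of the lowest array at 26 °C.

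The VSP1/VSP2 difference between temperatures was 1.49 ± 0.286 (SE of the model) in white light and 1.40 ± 0.286 with far-red light. Far-red light moved the mean by -0.30 ± 0.286 at 22 °C and by -0.39 ± 0.286 at 26 °C, with overlapping groups both times. The value at 22 °C rested on the high white-light array: without WL 22 °C replicate 1 it was 0.09. The value at 26 °C was -0.15 without WL 26 °C replicate 3, -0.20 without WFR 26 °C replicate 1 and -0.60 without WFR 26 °C replicate 2. The order of means was WL 26 °C, WFR 26 °C, WL 22 °C and WFR 22 °C, and each pair of neighbours in this order overlapped.

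NATA1 moved over the widest range, 4.97 on the log2 scale from its lowest to its highest array. Its log2 values at 22 °C were 6.85, 5.96 and 5.79 in white light (mean 6.20 ± 0.572) and 5.13, 5.63 and 5.96 with far-red light (mean 5.57 ± 0.415). At 26 °C they were 8.92, 8.59 and 10.11 in white light (mean 9.21 ± 0.795). With far-red light at 26 °C they were 7.39, 9.01 and 6.46 (mean 7.62 ± 1.29), the widest condition of any of the 3 probe sets. The highest of these 3 arrays lay within the range of white light at 26 °C, and the lowest lay below the highest white-light array at 22 °C.

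The temperature difference of NATA1 was 3.01 ± 0.519 in white light and 2.05 ± 0.519 with far-red light. Without WFR 26 °C replicate 2 the second value was 1.35, and without WFR 26 °C replicate 3 it was 2.63. Far-red light moved the mean of NATA1 by -0.63 ± 0.519 at 22 °C and by -1.59 ± 0.519 at 26 °C, a mean 3.01-fold lower, and in both cases 2 of the 9 array pairs ran the other way. Leaving out single arrays of far-red light at 26 °C took the latter from -2.28 (without replicate 2) to -1.01 (without replicate 3), and leaving out WL 22 °C replicate 1 took the former to -0.30. The order of means was the same as for VSP1/VSP2, and here too each pair of neighbours overlapped.

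AT4G17470 was the only one of the 3 probe sets whose 6 arrays at 26 °C all lay above its 6 arrays at 22 °C, which held for 1.71% of all probe sets. Its log2 values at 22 °C were 8.37, 7.29 and 7.83 in white light (mean 7.83 ± 0.540) and 8.16, 8.06 and 8.38 with far-red light (mean 8.20 ± 0.161). At 26 °C they were 9.15, 9.17 and 9.69 in white light (mean 9.33 ± 0.306) and 8.69, 9.20 and 9.11 with far-red light (mean 9.00 ± 0.271). The gap between the temperatures, from 8.38 to 8.69, was 0.313 wide.

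The temperature difference of AT4G17470 was 1.51 ± 0.222 in white light and 0.80 ± 0.222 with far-red light. Far-red light moved its mean up at 22 °C, by 0.38 ± 0.222, and down at 26 °C, by -0.33 ± 0.222, and the groups overlapped at both temperatures. The value at 22 °C was 0.65 without WL 22 °C replicate 1 and 0.11 without WL 22 °C replicate 2, and the value at 26 °C was -0.16 without WL 26 °C replicate 3 and -0.18 without WFR 26 °C replicate 1. The difference between these far-red effects was -0.71 ± 0.314, against -0.96 ± 0.734 for NATA1 and -0.09 ± 0.404 for VSP1/VSP2. With single arrays left out it ran from -0.98 (without WL 22 °C replicate 1) to -0.44 (without WL 22 °C replicate 2) for AT4G17470. For NATA1 it ran from -1.66 (without WFR 26 °C replicate 2) to -0.38 (without WFR 26 °C replicate 3). For VSP1/VSP2 it ran from -0.48 to 0.15 and changed sign without any of 5 single arrays. The order of AT4G17470 means was WL 26 °C, WFR 26 °C, WFR 22 °C and WL 22 °C, so the 22 °C conditions stood in the opposite order to that of the other probe sets, and overlapped.

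**Figure D1:**
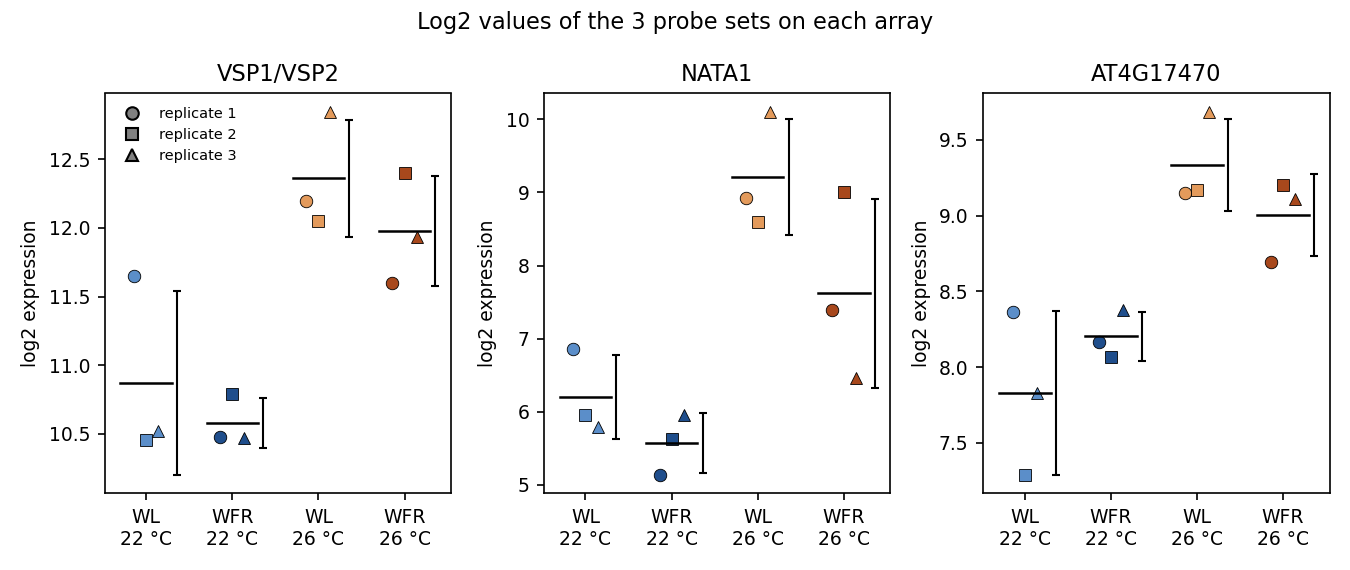
Log2 expression (vertical axis, separate scale per panel) of VSP1/VSP2, NATA1 and AT4G17470 in white light (WL) and white with supplemental far-red light (WFR) at 22 and 26 °C. Points are arrays, with the marker giving the replicate, horizontal lines are means and bars are SD (n = 3). The 26 °C conditions lie higher in every panel, and NATA1 with far-red light at 26 °C runs from 6.46 to 9.01.

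**Figure D2:**
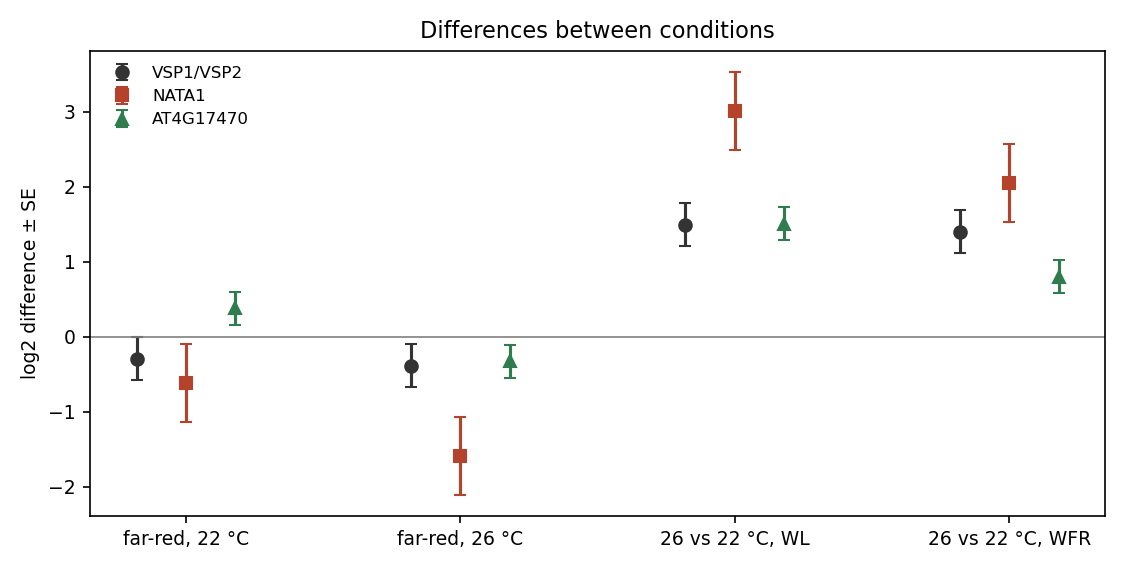
Log2 differences (vertical axis) of the 3 probe sets for far-red light at each temperature and for 26 against 22 °C in each light, with bars of ± 1 SE of the model. The temperature differences run from 0.80 to 3.01, and the far-red differences from -1.59 to 0.38.

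Temperature took most of the variation in each probe set. Of the sum of squares over the 12 arrays, the temperature means held 75.7% for VSP1/VSP2, 65.8% for NATA1 and 74.7% for AT4G17470. Light held 4.27%, 12.6% and 0.0271%, and the departure from additive effects 0.0732%, 2.39% and 7.06%. The remaining 20.0%, 19.2% and 18.2% was spread between replicates of a condition. That spread was large on the scale of the array: the SD within conditions was 0.454 for VSP1/VSP2, 0.836 for NATA1 and 0.348 for AT4G17470, against a median of 0.105 over all probe sets. Among the 1000 probe sets nearest to each in mean level, the share with a smaller SD was 99.9%, 99.9% and 99.3%. The members were chosen with their large spread known, so these ranks restate that choice.

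The replicates that stood high were the same arrays for all 3 probe sets. WL 22 °C replicate 1, WL 26 °C replicate 3 and WFR 26 °C replicate 2 were each the highest array of their condition for VSP1/VSP2, NATA1 and AT4G17470. For NATA1 they lay 0.65, 0.90 and 1.39 above the mean of their condition. With far-red light at 22 °C the highest array was replicate 2 for VSP1/VSP2 and replicate 3 for the other probe sets. Over the 12 arrays, the deviations from the condition means correlated between VSP1/VSP2 and AT4G17470 at r = 0.83 (Spearman rho = 0.84), between VSP1/VSP2 and NATA1 at r = 0.71 (rho = 0.52) and between NATA1 and AT4G17470 at r = 0.54 (rho = 0.50). Without the 2 arrays that deviated most on the first-named probe set, r was 0.63, 0.62 and 0.40. These are descriptions over 12 arrays that share 4 condition means, and each array contributes its own RNA sample, labelling and scaling to every value compared. With these 3 arrays left out together, a choice made after seeing the data, the temperature differences in white and in far-red light were 1.63 and 1.19 for VSP1/VSP2, 2.89 and 1.35 for NATA1, and 1.60 and 0.70 for AT4G17470.

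Other genes of the jasmonate pathway were taken from 6 lists, and 14 of the 77 genes written have a named probe set. These lists, like those of relatives below, were chosen with earlier results of these data known, so their counts are no independent test. Each was tested with limma in a fit over all probe sets, and called at a Benjamini-Hochberg adjusted p under 0.05. The JAZ repressors, COI1, MYC2, LOX2, AOS and TAT3 have no named probe set and are not reported. For the average temperature effect 3 of the 14 rose and 0 fell, where 2.92% of all probe sets rose and 2.48% fell. The median difference of the 14 was 0.15, against -0.0064 over all probe sets. In single comparisons, limma called 0 of 14 for temperature in white light, where 0.611% of all probe sets were called, and 0 for temperature with far-red light, where 1.1% were. It also called 0 for far-red light at 22 °C (0.659% of all probe sets called), at 26 °C (0.0879%), for the average far-red effect (1.12%) and for the interaction (0.0%). At an unadjusted p under 0.05, 7 of 14 passed for temperature in white light, where 12.8% of all probe sets did, and 2 of 14 with far-red light, where 14.1% did. The same counts were 1 of 14 for far-red light at 22 °C (13.2% of all probe sets), 2 at 26 °C (6.81%), 2 for the average far-red effect (14.5%) and 0 for the interaction (5.51%). For the average temperature effect 7 of 14 passed, where 19.3% of all probe sets did.

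The genes that rose were 2 of the 5 jasmonate turnover genes with a named probe set and 1 of the 2 of the wound branch of the response. AT5G05600, which encodes a jasmonate oxidase (JOX2) that inactivates the hormone by hydroxylation, had log2 values of 6.48, 5.96 and 6.83 in white light and 5.80, 7.05 and 5.35 with far-red light at 22 °C. At 26 °C it had 7.36, 7.25 and 8.29 in white light and 6.78, 7.95 and 6.88 with far-red light. The ranges of the temperatures overlapped with far-red light only, and the average rise was 1.17 (limma, adjusted p = 0.0299). JRG21, a second jasmonate oxidase (JOX3), lay between 4.34 and 4.68 on all 6 arrays at 22 °C. At 26 °C it had 5.51, 5.28 and 6.59 in white light and 4.71, 6.01 and 4.73 with far-red light, an average rise of 0.98 (adjusted p = 0.0253). With far-red light, replicates 1 and 3 thus lay just above the highest array at 22 °C, and only replicate 2 lay far above it. The mean of JRG21 over all arrays lay above that of 28.2% of probe sets and its 22 °C values lay lower still, so the size of its rise is uncertain. BSMT1, a methyltransferase that forms methyl salicylate and methyl benzoate, rose by 0.30 on average (adjusted p = 0.0134), from 4.20 to 4.33 at 22 °C to 4.43 to 4.83 at 26 °C. Its mean lay above that of only 16.2% of probe sets, among the dimmest on the array, so its level and the size of its rise are uncertain. BSMT1 was called whichever single array was left out, while AT5G05600 lost its call without any of 5 single arrays and JRG21 without WL 22 °C replicate 2 or 3. Without WL 22 °C replicate 2 the list kept 1 call, and without the 3 arrays above only JRG21 was called (adjusted p = 0.00325), with AT5G05600 at an adjusted p = 0.164 and BSMT1 at 0.0751.

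The other genes of the 6 lists with a named probe set did not pass for the average temperature effect. Of the turnover genes, AT3G11180 (JOX1) differed by 0.04 (limma, adjusted p = 0.822), AT2G38240 (JOX4) by 0.31 (adjusted p = 0.198) and JMT by 0.22 (adjusted p = 0.198). DGL, of the synthesis list, differed by -0.04 (adjusted p = 0.852). THI2.1, a thionin gene of the wound branch, had an average temperature difference of 1.03 (limma, adjusted p = 0.137) and an SD within conditions of 0.855, with 7.48 in WL 26 °C replicate 3 and 6.67 in WFR 26 °C replicate 2 against 4.89 to 5.57 on the other 4 arrays at 26 °C. MYC3 and MYC4, which drive the VSP branch together with MYC2 (not reported here), differed by 0.06 (adjusted p = 0.722) and 0.13 (adjusted p = 0.399). OPCL1 and AIM1, enzymes of the peroxisomal steps of jasmonate synthesis, differed by 0.15 (adjusted p = 0.356) and 0.14 (adjusted p = 0.132). PDF1.2 and PDF1.2b, defensins of the branch shared with ethylene whose near-identical sequences can cross-hybridise, differed by -0.19 (adjusted p = 0.903) and -0.25 (adjusted p = 0.878). Their SDs within conditions were 1.27 and 1.37, above those of 99.98% and 99.99% of probe sets. PDF1.2 ran from 5.20 to 8.67 with far-red light at 26 °C, again with replicate 2 highest.

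WL 26 °C replicate 3 was the highest array of its condition for 9 of the 14 jasmonate genes and WFR 26 °C replicate 2 for 10 of 14, where these arrays were the highest for 33.3% and 27.1% of all probe sets. WL 22 °C replicate 1 was the highest for 6 of 14 (29.9% of all probe sets), as was WL 22 °C replicate 3 (46.7%). The counts of these arrays were thus equal, while their shares over all probe sets were not. WFR 22 °C replicate 2 was also the highest for 6 of 14 (25.5%). Of the 14 genes, 7 had an SD within conditions above that of 90% of probe sets. What sets these arrays apart was not tested. In the map of deviations the same columns are red for the 3 probe sets and for JRG21 and THI2.1. AT5G05600 and PDF1.2 depart from them in white light at 22 °C, where replicate 3 and not replicate 1 was highest.

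**Figure D3:**
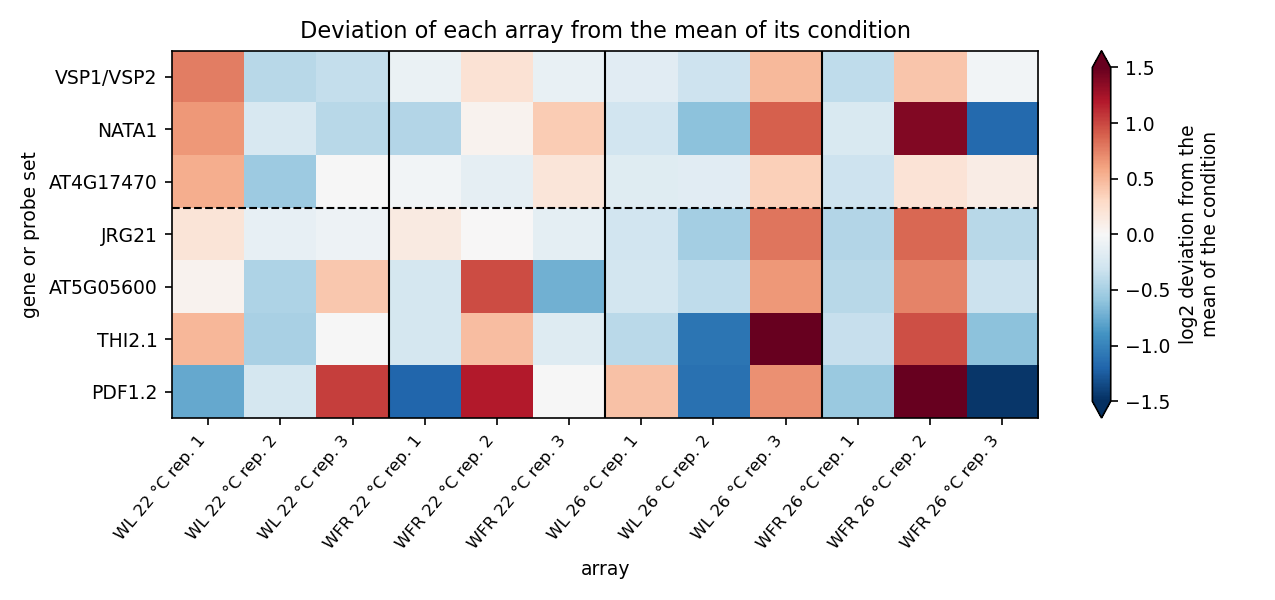
Log2 deviation of each array (columns) from the mean of its condition for the 3 probe sets (above the dashed line) and 4 other jasmonate genes (rows), red for above and blue for below the mean, with colours saturated at 1.5. WL 26 °C replicate 3 and WFR 26 °C replicate 2 are above the mean for all 7 rows. The 4 genes were picked from the 14 jasmonate genes, and DGL, not shown, was lowest of its condition on both of these arrays.

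Genes closest to the members in sequence family or pathway were also tested. AT2G39020 (NATA2), the acetyltransferase gene next to NATA1 on its chromosome in the RefSeq gene order, stayed between 8.55 and 8.93 on all 12 arrays and differed by 0.04 ± 0.0686 between temperatures (limma, adjusted p = 0.822), beside 2.53 ± 0.367 for NATA1. DELTA-OAT, ornithine aminotransferase, which also uses ornithine, differed by 0.07 (adjusted p = 0.712). These were the 2 of 9 ornithine and polyamine genes with a named probe set.

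AT4G17480, the gene next to AT4G17470 and a palmitoyl-protein thioesterase of the same family, rose by 0.31 on average at 26 °C (limma, adjusted p = 0.0302), beside 1.15 for AT4G17470. Its log2 values were 5.93 to 6.19 at 22 °C, 6.52, 6.54 and 6.33 in white light at 26 °C and 6.13, 6.54 and 6.11 with far-red light at 26 °C. AT5G47330 of the same family rose by 0.35 (adjusted p = 0.0287). In all, 2 of the 6 family members rose and 0 fell, beside 2.92% and 2.48% of all probe sets, and all 6 had positive average differences, with a median of 0.16. Each gene lost its call without any of 6 single arrays, not the same 6 for both, and both lost it with the 3 high arrays left out (adjusted p = 0.0566 for AT4G17480 and 0.186 for AT5G47330).

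Of 8 acid phosphatase genes of the VSP family, 0 rose and 1 fell for the average temperature effect, beside the same 2.92% and 2.48%. AT2G39920 fell by 0.44 (limma, adjusted p = 0.0202), from 6.10 to 6.71 over the arrays at 22 °C to 5.52 to 6.10 at 26 °C, a call lost without WL 26 °C replicate 2 (adjusted p = 0.0526) and without the 3 high arrays (adjusted p = 0.0837). AT4G29270 differed by 0.34 (adjusted p = 0.132). The median difference of the 8 genes was -0.03, beside 1.44 for VSP1/VSP2. In single comparisons limma called 0 of the 16 genes of these 3 lists. Of all probe sets it called 0.611% for temperature in white light and 1.1% with far-red light. For far-red light at 22 and 26 °C it called 0.659% and 0.0879%, so 0 of 16 is close to these shares. At an unadjusted p under 0.05 there were 4 of 6 thioesterase and 2 of 8 acid phosphatase genes for temperature in white light, where 12.8% of all probe sets passed. With far-red light there were 1 of 6 and 2 of 8, where 14.1% passed. For the average temperature effect there were 4 of 6 and 3 of 8, where 19.3% passed. For the average far-red effect there were 2 of 8 acid phosphatase genes, where 14.5% passed, and for far-red light at 22 or 26 °C there were 0 genes of the 3 lists (13.2% and 6.81%).

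**Figure D4:**
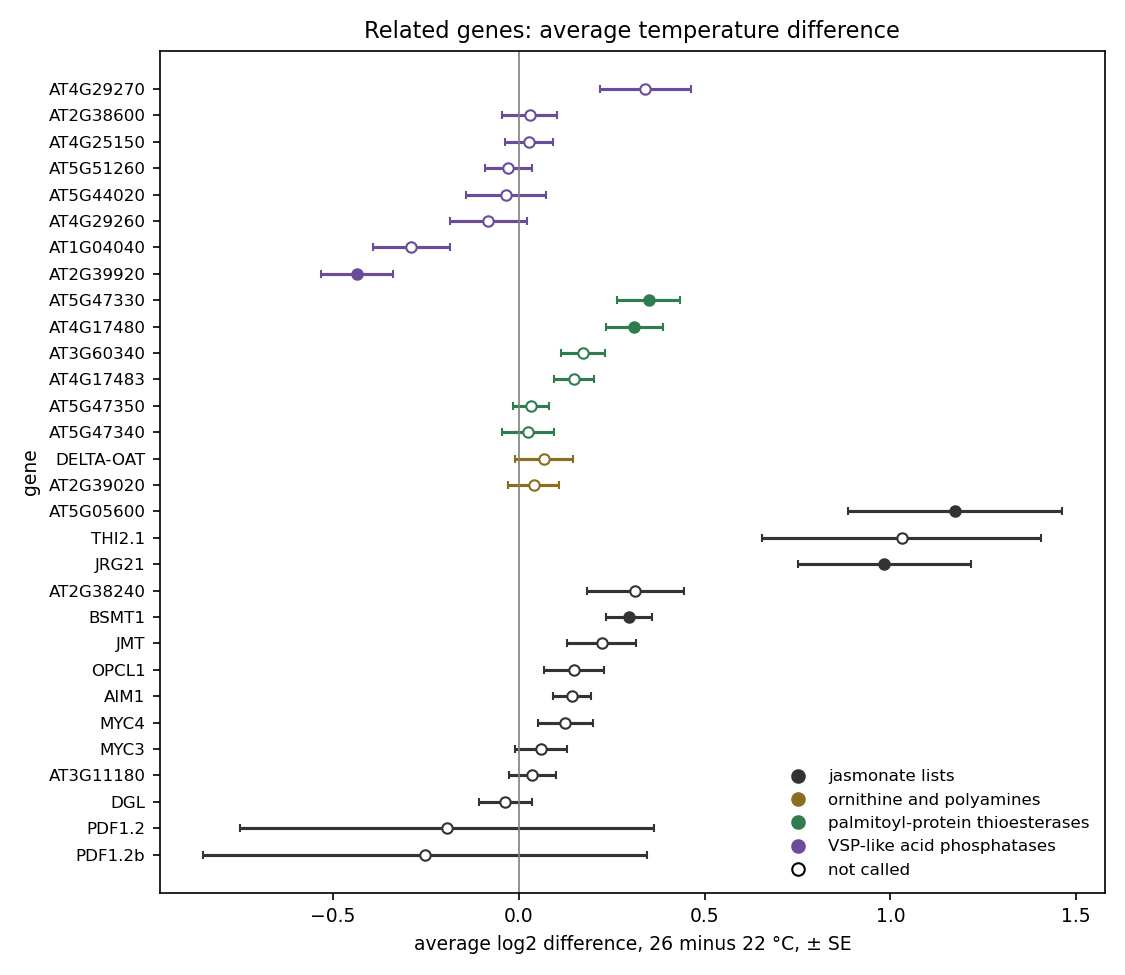
Average log2 difference between 26 and 22 °C (horizontal axis, bars of ± 1 SE) for the named genes of the jasmonate lists and of the 3 lists of relatives. Filled points passed limma at an adjusted p under 0.05, open points did not. AT5G05600 and JRG21 lie at 1.17 and 0.98, and the VSP-like acid phosphatases centre on a median of -0.03.

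The likeness of other genes to each probe set was measured as Pearson's r of log2 values over the 12 arrays, among 13512 named probe sets. It is a description, since all such values share the temperature difference and the arrays. The genes were picked on the same arrays, so the limma values given for them describe them and are no independent result. CSLA01, of the glucomannan synthase family, was the named gene most alike to VSP1/VSP2 (r = 0.947) and to NATA1 (r = 0.938). For each of these members, 2 probe sets outside the named ones had a higher r. The log2 values of CSLA01 were 6.16 to 7.10 at 22 °C and 7.33 to 8.53 at 26 °C, and its rise in white light was 1.58 (limma, adjusted p = 0.0126). That call was lost in a fit of the compared conditions alone (adjusted p = 0.0629) and without any of 4 single arrays, replicates 2 and 3 of white light at 22 and 26 °C (adjusted p up to 0.0754). BCAT4, an aminotransferase of methionine-derived glucosinolate synthesis, followed for VSP1/VSP2 (r = 0.940), then AT1G13990 (0.934), AT5G25280 (0.925) and CP5 (0.925).

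For NATA1, AT1G01170 (r = 0.931), the jasmonate oxidase gene JRG21 (0.926), AT5G25450 (0.915) and AT5G25280 (0.913) followed CSLA01. AT1G01170 moved along a far smaller range, 10.88 to 11.13 over all arrays, with an average temperature difference of 0.11 that was not called (limma, adjusted p = 0.139). For AT4G17470 the nearest were AT4G23670 (r = 0.955), AT1G14120 (0.939), the GDSL lipase gene AT1G31550 (0.937), AT3G15780 (0.934) and CP5 (0.932). AT1G14120 encodes a 2-oxoglutarate-dependent dioxygenase, and its average rise was 0.97 (limma, adjusted p = 0.00161). CP5 rose by 0.75 in white light (adjusted p = 0.0012) and by 0.45 with far-red light (adjusted p = 0.0258). The rise with far-red light lost its call without any of 5 single arrays, replicates 2 and 3 at 22 °C and all 3 at 26 °C (adjusted p up to 0.122), and without the 3 high arrays (adjusted p = 0.0965), while that in white light kept it. Of the 12 genes named for likeness, 11 were called for the average temperature effect, beside 2.92% of all probe sets higher and 2.48% lower. AT1G31550 lost this call without any of 7 single arrays (adjusted p up to 0.0652). Since the members differed in mean between temperatures, genes picked for likeness to them had to differ between temperatures too.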

How the data were processed

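Expression was measured on 12 one-colour Affymetrix arrays with biotin-labelled RNA. Each array has 1 log2 value for every probe set in the table the authors deposited. RMA, affy and MAS5 are named, per the submitters' processing notes, without versions, and the sources used here do not say which of them gave the values. With 3 arrays per condition, their number sets the precision.

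Of 22810 probe sets, 64 controls were left out. Genes came from the platform annotation, updated through RefSeq gene records of TAIR10.1: 13513 probe sets had 1 gene, 503 several, and 8730 are unnamed here. The condition means were fitted in R 4.3.3 by limma 3.58.1 (lmFit, then eBayes with no trend, 8 residual and 5.99 prior degrees of freedom), two-sided, with Benjamini-Hochberg adjustment over all 22746 probe sets for each of 7 comparisons. For a gene with several probe sets the brightest was used. The fit was checked on simulated data.

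The members and gene lists were chosen with earlier results of these data known. The text names the members, the 5 named probe sets most alike to each, the called genes of each list (up to 4), the 2 with the largest average temperature difference where fewer than 2 were called, and 9 genes set to be named whatever their values, of which PDF1.2 and AT2G39020 have a named probe set. The remaining genes of the jasmonate lists with a named probe set are named too. Alternatives were other scalings, a filter on dim probe sets, fits of the compared conditions alone, the replicate number as a block and leaving out arrays. No sequences or genome coordinates are given.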

Additional observations from a re-analysis of the deposited data

How the results depend on the processing

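Under median subtraction and quantile normalisation, the differences of the 3 probe sets moved by less than their SD within conditions. With single arrays left out, signs changed only for VSP1/VSP2, in the far-red difference at 22 °C (-0.51 to 0.09 with single arrays left out) and in the interaction (-0.48 to 0.15). Over single left-out arrays the temperature difference in white light ran from 1.25 to 1.88 for VSP1/VSP2, 2.56 to 3.34 for NATA1 and 1.24 to 1.78 for AT4G17470. With far-red light it ran from 1.19 to 1.59, 1.35 to 2.63 and 0.70 to 0.95. The number of jasmonate genes called by limma for the average temperature effect was 1 to 3 with single arrays left out (1 without WL 22 °C replicate 2) and 1 without the 3 high arrays together. It was 2 without the dimmest 25% of probe sets, a filter that removes BSMT1. For temperature in white light it was 0 to 1 (1 without WL 26 °C replicate 1 or without WFR 26 °C replicate 2), and 1 without the 3 high arrays. These counts use fewer samples, and the cause was not tested further. With the 3 arrays left out, all probe sets called for the average temperature effect numbered 474, against 1227 with all arrays and 655 without WL 26 °C replicate 2, the lowest count with 1 array left out. Fits of the compared conditions alone called 10 probe sets for far-red light at 22 °C against 150, and 57 for temperature in white light against 139. Array medians subtracted, the average far-red effect had 106 higher and 150 lower calls, against 188 and 67 as deposited.

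No pairing of the arrays by replicate number was seen in their deviations from the condition means. Of the 18 correlations between same-numbered arrays 1 was over 0.1 (range -0.26 to 0.12), and 2 of 12 arrays correlated best with their own number. The deviations within a condition cancel out, so these correlations depend on each other and cannot show which arrays were handled together. Of the 36 correlations between other numbers, 10 were over 0.1 (range -0.25 to 0.25). WL 26 °C replicate 3 and WFR 26 °C replicate 2 correlated at 0.23, and WL 22 °C replicate 1 correlated with them at 0.06 and 0.10. What these arrays share was not tested. With the replicate number as a block, the jasmonate list had 2 calls for the average temperature effect, and AT4G17480, JRG21 and AT1G31550 lost their calls. In this balanced design the block cannot move a difference, only its SE, which went from 0.519 to 0.562 for the NATA1 temperature difference in white light (3.01). Over all probe sets the block gave 84 calls for far-red light at 22 °C, 88 for temperature in white light and 138 with far-red light, the last against 250. By rank, AT5G25280 was 56th in likeness to VSP1/VSP2 by Spearman's rho and JRG21 56th to NATA1. JRG21 ranked 1 in likeness to VSP1/VSP2 by rho (0.965). On deviations from the condition means, 11 of the 15 likenesses named above fell outside the nearest 50 and 4 did not. AT5G25280 was then at rank 509 for VSP1/VSP2 and 856 for NATA1.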

Other observations

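When likeness was measured on the deviations from the condition means alone, a choice made after seeing the data, other genes came first. For NATA1 they were AT1G65510 (r = 0.962), AT5G11650 (0.953), AT1G17860 (0.923), which encodes a Kunitz-type protease inhibitor family protein, AT1G63350 (0.920) and AT3G55430 (0.913). On the log2 values of the 12 arrays, r with NATA1 was -0.24 for AT1G63350 and 0.65 to 0.83 for the others. By deviations, the genes for VSP1/VSP2 began with AT4G39955 (r = 0.920) and the GDSL lipase gene AT1G31550 (0.904), and those for AT4G17470 with AT3G28220 (0.951) and BCAT4 (0.932). BCAT4 and AT1G31550 were thus near AT4G17470 both over all arrays and within conditions, at ranks 2 and 23 within conditions. These are the highest values among 13512 named probe sets over 12 arrays, and are given as values only.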
